A study of Mus musculus with 20 samples.

Results

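The pyruvate dehydrogenase complex and its kinases were examined here as 9 genes of the 21705 in the deposited expression table: the subunit genes Pdha1, Pdhb, Dlat, Dld and Pdhx and the kinase genes Pdk1, Pdk2, Pdk3 and Pdk4. They were taken by gene symbol, and the set was chosen by a measured result as well, the lower expression of Pdhx under rapamycin. Values of Pdhx in the rapamycin comparisons are therefore a description and carry no test. All 9 genes passed the filter on low values and were among the 13548 genes tested.

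Ventricles of male C57Bl/J6 mice were sequenced in 4 groups of 5 libraries. Control mice were Acsl1flox/flox littermates and knockout mice were Acsl1H-/-, in which the long-chain acyl-CoA synthetase gene Acsl1 is deleted in the heart. Every mouse, controls included, had received tamoxifen at 75 mg/kg on 4 days from the age of 6 to 8 weeks, and the tissue was taken 2 weeks later. Within each genotype, 1 group was given rapamycin, an inhibitor of the kinase mTOR, at 1 mg/kg daily for 2 weeks and the other group its vehicle. The labels do not name the Cre transgene that deletes Acsl1, so an effect of the transgene itself and of Acsl1 loss cannot be told apart. In whole ventricle, fewer cells of a type and less RNA per cell cannot be told apart either.

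The pyruvate dehydrogenase complex sits in the mitochondrial matrix and turns pyruvate into acetyl-CoA, which commits carbohydrate carbon to oxidation. Its E1 enzyme is built from the Pdha1 and Pdhb proteins, Dlat is the E2 acetyltransferase that carries lipoyl groups, Dld is the E3 dehydrogenase, and Pdhx is the binding protein that holds E3 in the complex. The 4 Pdk kinases phosphorylate E1 and switch the complex off, and the phosphatases Pdp1 and Pdp2 switch it on again. In heart, Pdk4 is known as the kinase whose transcript responds to fasting, fatty acids acting through PPAR receptors, and glucocorticoids, so that fat is burned in place of glucose.

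The promoters of the members with the most distinct patterns are shown to place those patterns on the genome, Pdhx for its values under rapamycin and Pdk4 for its spread between animals. Both sequences are from RefSeq on build GRCm38.p6 and read 5′ to 3′ on the minus strand, the strand of both genes, ending at the base before the gene's start. The deposited values were made on build mm9, so these coordinates locate the genes only. Pdhx lies at chr2:103073514-103073674 in this window, which was stopped at 161 bases because the start of the neighbouring gene Apip, read in the opposite direction, lies there. Capitals mark the motif GGGCGG (GC box, searched on both strands), which had 1 match.
Pdhx: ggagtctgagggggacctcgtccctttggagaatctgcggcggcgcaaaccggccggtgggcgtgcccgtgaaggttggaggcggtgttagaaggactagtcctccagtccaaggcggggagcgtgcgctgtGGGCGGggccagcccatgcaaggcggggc
The Pdk4 window of 250 bases is chr6:5496279-5496528, and capitals mark the motif CCAAT (searched on both strands), whose 1 match lies on the opposite strand.
Pdk4: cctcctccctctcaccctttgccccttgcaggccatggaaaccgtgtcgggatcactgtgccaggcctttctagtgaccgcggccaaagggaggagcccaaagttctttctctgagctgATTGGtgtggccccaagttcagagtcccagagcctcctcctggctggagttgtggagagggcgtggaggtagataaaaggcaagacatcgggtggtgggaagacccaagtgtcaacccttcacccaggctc
Windows of the same length held GGGCGG in 29.3% of 32851 RefSeq mouse promoters for the Pdhx length, and CCAAT in 33.8% for the Pdk4 length. The Pdhx window held 14 CpG dinucleotides against a median of 4 over all promoters, and the Pdk4 window 6 against a median of 6. The Pdk4 window held no GGGCGG and the Pdhx window no CCAAT. Neither window held the TATA box letters TATAAA on either strand, which 8.05% of promoters hold at the Pdhx length and 12.4% at the Pdk4 length. The nuclear receptor half-site AGGTCA was also in neither (9.21% and 14% of promoters), nor was the FoxO site TGTTTAC (1.97% and 3.17%).

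Expression is given as the authors' normalized value, an RSEM estimate scaled to an upper quartile close to 1000. The depth implied by the smallest steps of the values was 11.5 to 21.1 M reads per library, and replicates of a group correlated at r = 0.944 to 0.985 over the genes tested. Acsl1 read 6373 to 16661 in the 10 control libraries and 631 to 1950 in the 10 knockout libraries, which matches every genotype label. Cardiomyocyte transcripts were abundant in every library, with Myh6 at 187373 or more. Libraries 1 and 3 of the control vehicle group stood apart in a transcript-length score, the mean centred log2 expression of genes in the top tertile of transcript length minus that of genes in the bottom tertile. They scored -0.85 and -0.93, while the other 18 libraries lay between -0.36 and 0.46. Most differences of the members that rest on them are given with and without them. Marker sets and most values of the wider lists are given with them only. Of the atrial markers, Bmp10 was at 0 in 11 libraries and Sln in 3. The summed value of the 6 atrial markers ranged from 4508 to 67482, with at most 8690 in control vehicle hearts, and that of the erythroid markers from 13554 to 155367.

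**Figure D1:**
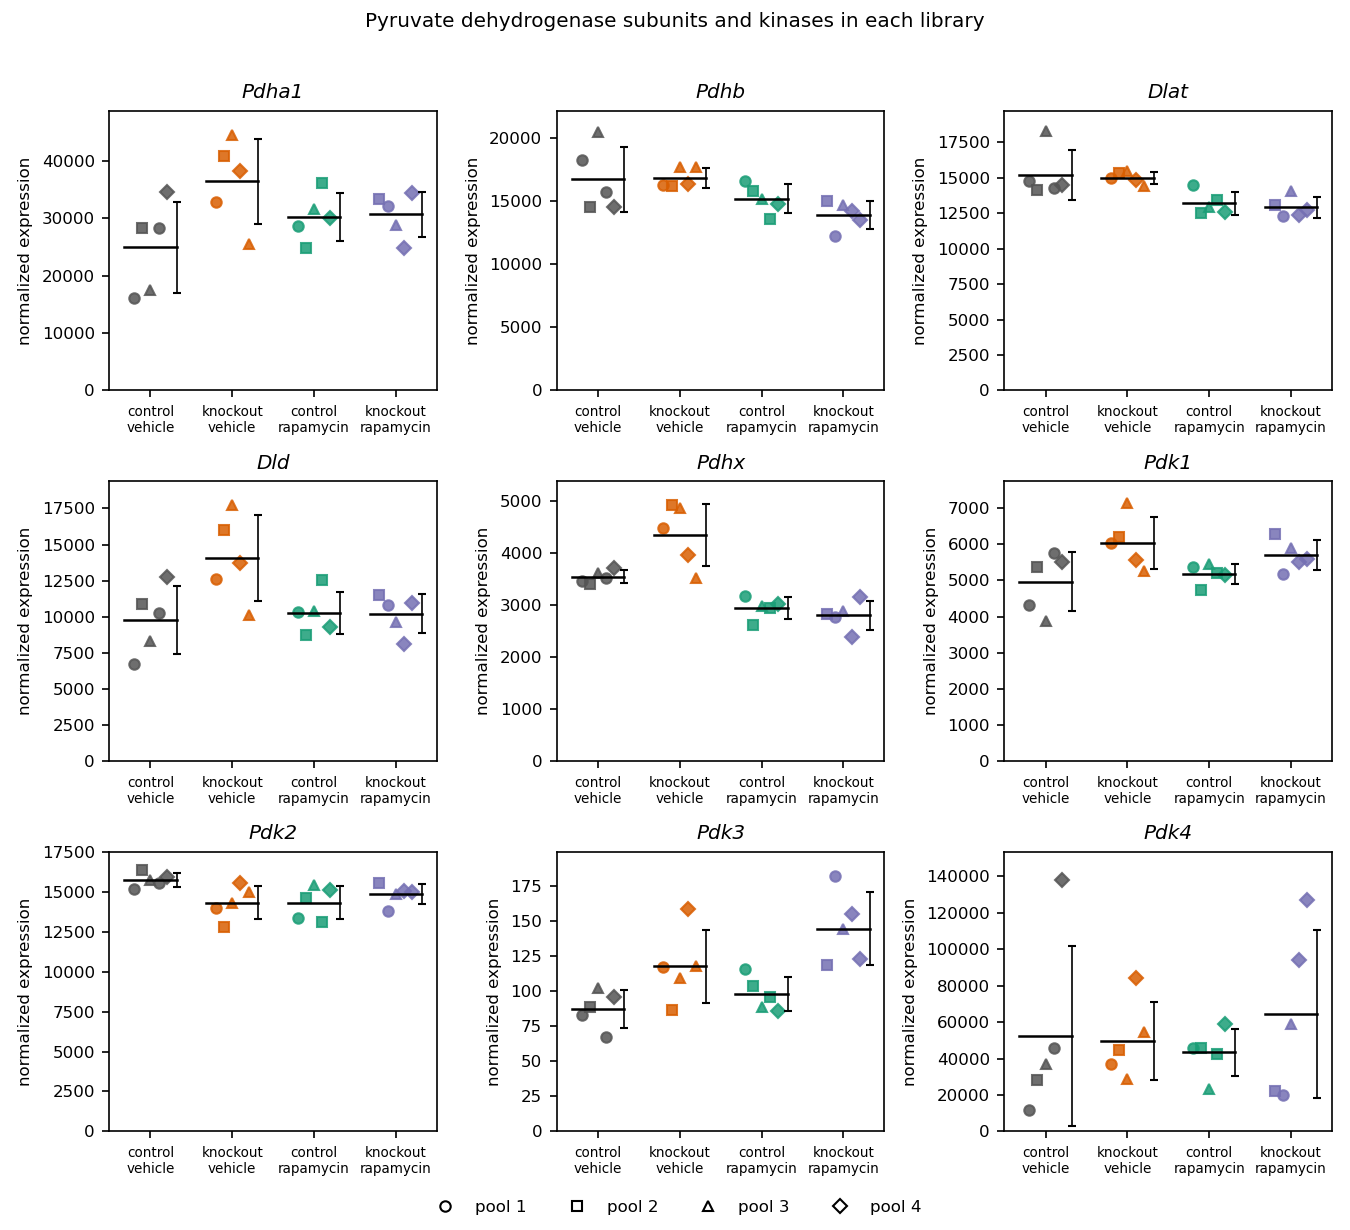
Each panel plots 1 gene's normalized expression (y axis, linear from 0) in the 4 groups of 5 libraries (x axis), with 1 point per library, marker shape for the sequencing pool, a line at the group mean and a bar of 1 SD. The 10 rapamycin libraries of Pdhx (2381 to 3166) sit below the 10 vehicle libraries (3394 to 4914), and Pdk4 spreads from 11924 to 138099 with a diamond, a library of pool 4, highest in each of the 4 groups.

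Per kilobase of transcript, Pdk4 had the highest mean level of the 9 genes, 15054, followed by Pdha1 at 10746 and Pdhb at 10351, the E1 subunits. Pdk2, the other abundant kinase, averaged 6594 per kilobase, Dld 4349 and Dlat 3489. Pdhx averaged 1360 per kilobase, Pdk1 1055 and Pdk3, the least expressed kinase, 52.9. This order held in all 20 libraries for 3 neighbouring pairs: Pdhb above Pdk2, Dlat above Pdhx and Pdk1 above Pdk3. Their ranges did not overlap. Pdk4 exceeded Pdha1 in only 11 of 20 libraries and Pdha1 exceeded Pdhb in 13 of 20, so the top 3 genes did not differ beyond their spread. Pdk2 exceeded Dld, Dld exceeded Dlat and Pdhx exceeded Pdk1 in 18 of 20 libraries each, with overlapping ranges. Per-kilobase levels use the longest annotated coding transcript, which may not be the length RSEM used.

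Pdhx, the E3-binding protein, was the member whose values chose the set. Its normalized values were 3464, 3394, 3624, 3528 and 3708 in control vehicle hearts and 3166, 2606, 2971, 2944 and 3011 in control hearts given rapamycin. In knockout hearts they were 4476, 4914, 4869, 3964 and 3514 under vehicle and 2832, 2763, 2890, 2381 and 3156 under rapamycin. All 10 rapamycin libraries lay below all 10 vehicle libraries, and the ranges of both drug groups did not overlap within either genotype. The group means were 3544 ± 125, 4347 ± 602, 2940 ± 205 and 2804 ± 279 (SD, n = 5) in the order control vehicle, knockout vehicle, control rapamycin, knockout rapamycin.

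On the log2 scale, the fitted difference of Pdhx under rapamycin was -0.27 in control hearts and -0.63 in knockout hearts. Averaged over genotypes the difference was -0.45, a fold of 0.732. No interval is printed for these differences, since they chose the set, and their values by pool are a description as well. Within sequencing pools 1 to 4 the averaged difference was -0.42, -0.54, -0.40 and -0.42, and without control vehicle libraries 1 and 3 it was -0.45. Markers of other cells differed as well, with none called. Of 6 macrophage markers, 1 lay above 0 under rapamycin averaged over genotypes (median -0.24), 2 in control hearts (-0.19) and 0 in knockout hearts (-0.32). Of 6 endothelial markers, 6, 6 and 5 lay above 0 (medians 0.21, 0.27 and 0.11). Atrial markers had medians of 0.76, 2.75 and -1.05 in the same order, erythroid markers 0.14, -0.47 and 0.77, fibroblast markers 0.14, 0.50 and -0.12, and cardiomyocyte markers -0.060, -0.16 and -0.020. Adipocyte markers had medians of 0.70, 1.28 and -0.019 in that order, and skeletal muscle markers -0.027, -0.26 and -0.0031. The part of other cells in the Pdhx difference was not tested. The largest vehicle values came from knockout hearts, libraries 1 to 3 at 4476 to 4914, and the lowest rapamycin value was knockout library 4 at 2381. As background, limma called 0.125% of all genes under rapamycin averaged over genotypes, 0.103% of them lower, and 0.00738% (1 gene) lower in knockout hearts. In control hearts limma called 0% of genes, 14.9% had an unadjusted p below 0.05, and 0.590% were lower without overlap. The count of 1 gene in knockout hearts was 0 in 6 of 11 alternative settings. Nothing is read for Pdhx from these shares or from that count under any setting, since its values chose the set. Every rapamycin library lay below every vehicle library in 4 genes, 0.0295% of those tested. Pdhx was 1 of them, which its choice for a fall under rapamycin makes likely, so nothing is read from that share either. The other three, named after their values were seen, were Atpaf1, Kyat3 and Yars2.

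The genotype differences of Pdhx share their libraries with the rapamycin differences that chose the set, so they are given as a description. Under vehicle the knockout values overlapped the control values through knockout library 5 only, and the fitted difference was 0.28 (SE 0.099). It was 0.28 without control vehicle libraries 1 and 3 as well, and 0.36, 0.53, 0.19 and 0.096 within the 4 pools. Under rapamycin the Pdhx genotype difference was -0.071 (95% interval -0.28 to 0.13). The log2 ratio of Pdhx to Dlat per kilobase was -1.41 ± 0.14 in control vehicle, -1.11 ± 0.17 in knockout vehicle, -1.48 ± 0.078 in control rapamycin and -1.52 ± 0.14 in knockout rapamycin hearts (SD, n = 5).

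The 5 genes whose log2 values followed Pdhx most closely over the 20 libraries were Mterf2 and Timm44 (Pearson r = 0.89 each), Abat (0.86), and Bdh1 and Ndufaf7 (0.85 each). These coefficients hold the group differences as well as the spread within groups. With group means removed they were 0.73, 0.76, 0.61, 0.53 and 0.54. Apip, whose start lies 161 bases from that of Pdhx, was chosen after its values were seen. Its fitted rapamycin difference was -0.37 in control hearts (limma adjusted p = 0.336), and its genotype difference under vehicle was -0.46 (adjusted p = 0.118), opposite in sign to that of Pdhx. Without control vehicle libraries 1 and 3 the Apip differences became -0.086 and -0.17 (limma adjusted p = 0.9998 and 0.857). Within control vehicle, Apip was highest in libraries 1 and 3 (2009 and 2559 against 1292 to 1462), the libraries with the lowest length score.

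The other 4 subunits did not pass the test in any comparison. Under vehicle, 0.244% of all genes were called between genotypes (33 of 13548), while 31.8% had an unadjusted p below 0.05. Markers of other cells also differed between these groups: 5 of 5 atrial markers tested (median 3.86) and 7 of 7 fibroblast markers (median 0.80) lay above 0 in knockout hearts, with none called, and 6 of 6 erythroid markers lay below 0 (median -1.70), with 2 called lower. All 5 adipocyte markers tested lay above 0. Medians were 0.29 for 6 macrophage, 0.15 for 6 skeletal muscle, 0.14 for 6 endothelial and -0.13 for 8 cardiomyocyte markers, with none called. Their part in the subunit differences was not tested. The E1 alpha subunit Pdha1 read 16103, 28348, 17435, 28275 and 34552 in control vehicle and 32926, 40833, 44614, 38305 and 25595 in knockout vehicle hearts. Control libraries 1 and 3 were lowest, and the groups overlapped. The fitted difference was 0.58 (SE 0.19, limma adjusted p = 0.0986), and it became 0.24 (adjusted p = 0.806) without control vehicle libraries 1 and 3. The E3 gene Dld read 6699, 10843, 8285, 10238 and 12731 in control vehicle and 12578, 16037, 17746, 13749 and 10114 in knockout vehicle hearts. Its lowest values again came from control libraries 1 and 3. Its difference of 0.53 (SE 0.17, limma adjusted p = 0.0966) became 0.30 (adjusted p = 0.756) without that pair. For both genes, leaving out control vehicle library 5 or knockout vehicle library 5 took the difference past the threshold (limma adjusted p = 0.0323 and 0.0359). Without control vehicle library 5 the count of genes called over the whole table was 3090 of 13548, so passing there is not particular to these 2 genes. The count without knockout vehicle library 5 is not given here.

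Under rapamycin the same genotype comparison gave differences close to 0 for Pdha1 (0.022, 95% interval -0.38 to 0.43) and Dld (-0.0068, -0.36 to 0.35). The test of whether the genotype difference itself changed with rapamycin gave -0.56 for Pdha1 and -0.54 for Dld (limma adjusted p = 0.523 for each), in a comparison where limma called 0% of genes and 8.30% had an unadjusted p below 0.05. Without control vehicle libraries 1 and 3 these became -0.22 and -0.30.

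Pdhb, the E1 beta subunit, and Dlat, the E2 core, were steadier than Pdha1 and Dld. Their SD within groups exceeded that of 7.29% and 1.46% of the genes tested, against 52.5% for Pdha1 and 42.7% for Dld. Under vehicle their genotype differences were 0.023 (95% interval -0.19 to 0.23) and -0.011 (-0.19 to 0.17). In knockout hearts Dlat read 14966, 15340, 15461, 14862 and 14393 under vehicle and 13079, 12274, 14079, 12402 and 12725 under rapamycin, with every rapamycin value below every vehicle value. Pdhb read 16241, 16191, 17688, 16342 and 17728 against 14986, 12208, 14658, 14232 and 13478 in the same groups, again without overlap. Of all genes, 1.23% were lower without overlap in this comparison. The fitted differences were -0.22 for Dlat (limma adjusted p = 0.668) and -0.28 for Pdhb (adjusted p = 0.613). Averaged over genotypes they were -0.21 (SE 0.060, limma adjusted p = 0.219) and -0.20 (SE 0.072, adjusted p = 0.368), and neither passed the test. The Dlat difference was below 0 in each of the 4 pools, at -0.14, -0.17, -0.29 and -0.23. In knockout hearts Dld differed by -0.45 (SE 0.17, limma adjusted p = 0.647).

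**Figure D2:**
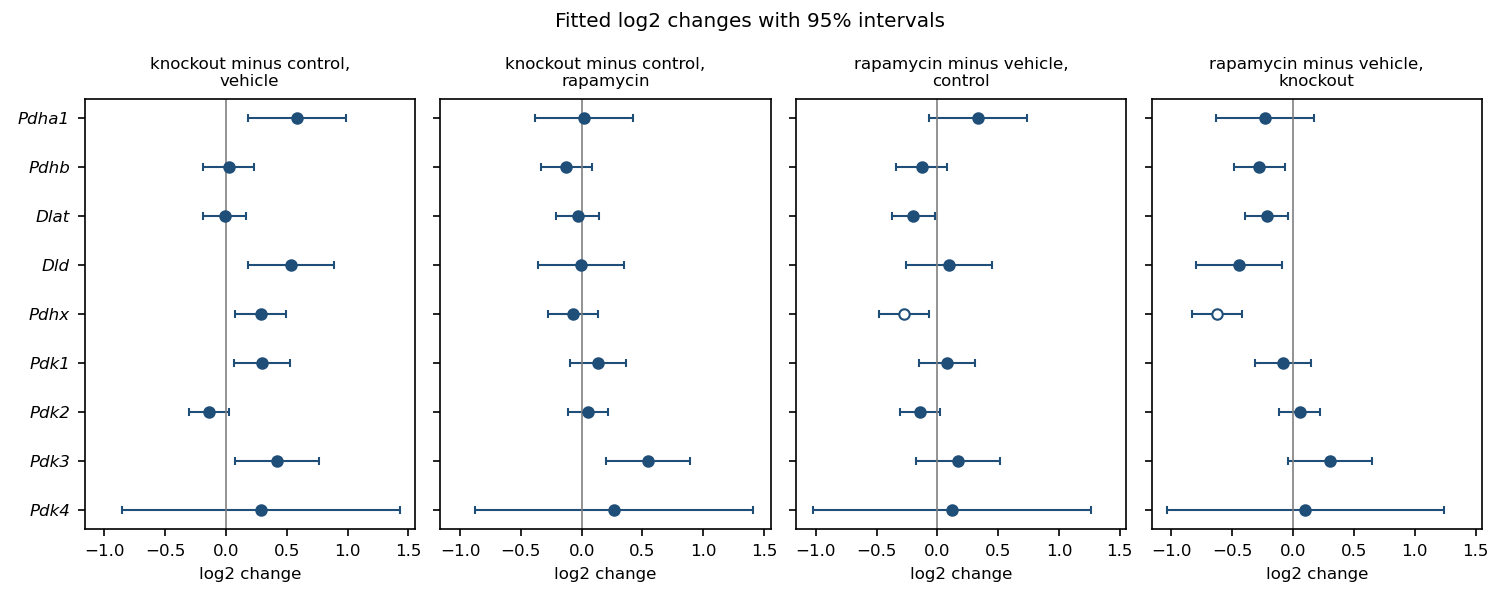
Points are fitted log2 differences and bars their 95% intervals (x axis) for the 9 genes (y axis) in 4 comparisons, each panel naming the group subtracted. Open points mark Pdhx in the rapamycin comparisons, at -0.27 and -0.63. Those values chose the set, so their bars are no test of a difference from 0. The Pdhx points in the genotype comparisons share those libraries and are a description as well. The widest bars are those of Pdk4, from -0.85 to 1.43 under vehicle.

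Pdha1 and Dld moved together across libraries, as did Pdhb and Dlat, and the former pair followed the transcript-length score. Over the 20 libraries the correlation of log2 values was r = 0.91 between Pdha1 and Dld, 0.83 between Pdha1 and Pdk1, 0.81 between Pdhb and Dlat, and -0.44 between Pdha1 and Pdhb. With group means removed these coefficients were 0.95, 0.78, 0.67 and -0.70 in the same order. Subunits of 1 enzyme, Pdha1 and Pdhb, thus had a coefficient below 0 in these libraries. The coefficients between members are not given without control vehicle libraries 1 and 3. Against the length score, Pdha1 had Pearson r = 0.96 and Spearman rho = 0.95 (permutation p = 1e-05 for each, the smallest that the permutations can give; adjusted p = 4.7e-05 and 3.5e-05 over 14 genes; n = 20). Without control vehicle libraries 1 and 3, the farthest from the median score, r was 0.90. Dld had r = 0.81 and rho = 0.87 (permutation p = 2e-05 and 1e-05, adjusted p = 7e-05 and 3.5e-05), with r = 0.76 without that pair. Pdk1 had r = 0.78 and rho = 0.54 (permutation p = 0.00011 and 0.0158, adjusted p = 0.000308 and 0.0316), which became r = 0.47 without the pair. Pdhb had r = -0.64 and rho = -0.40 (permutation p = 0.00234 and 0.0821, adjusted p = 0.00516 and 0.128), and its r of -0.29 without the pair shows that the relation rests on those libraries. Pdhx had r = 0.17 and rho = 0.22 (permutation p = 0.477 and 0.348, adjusted p = 0.477 and 0.443), with r = 0.43 without the pair. The log2 ratios Pdhb over Pdha1, Dlat over Pdha1 and Dld over Dlat did not pass in any comparison (two-sided exact permutation, adjusted p = 0.370 or more over 14 comparisons, where a single ratio could reach no lower than 0.111). The score was made from the expression values of these same libraries. The share of all genes that follow it is not given here, so the relations are not shown to be particular to these genes. The permutations shuffled libraries over all 4 groups, so the p-values take in differences between groups as well. Each pool holds 5 libraries, too few for a correlation within pools. The part of the length score in the genotype differences was not tested beyond the values without libraries 1 and 3.

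**Figure D3:**
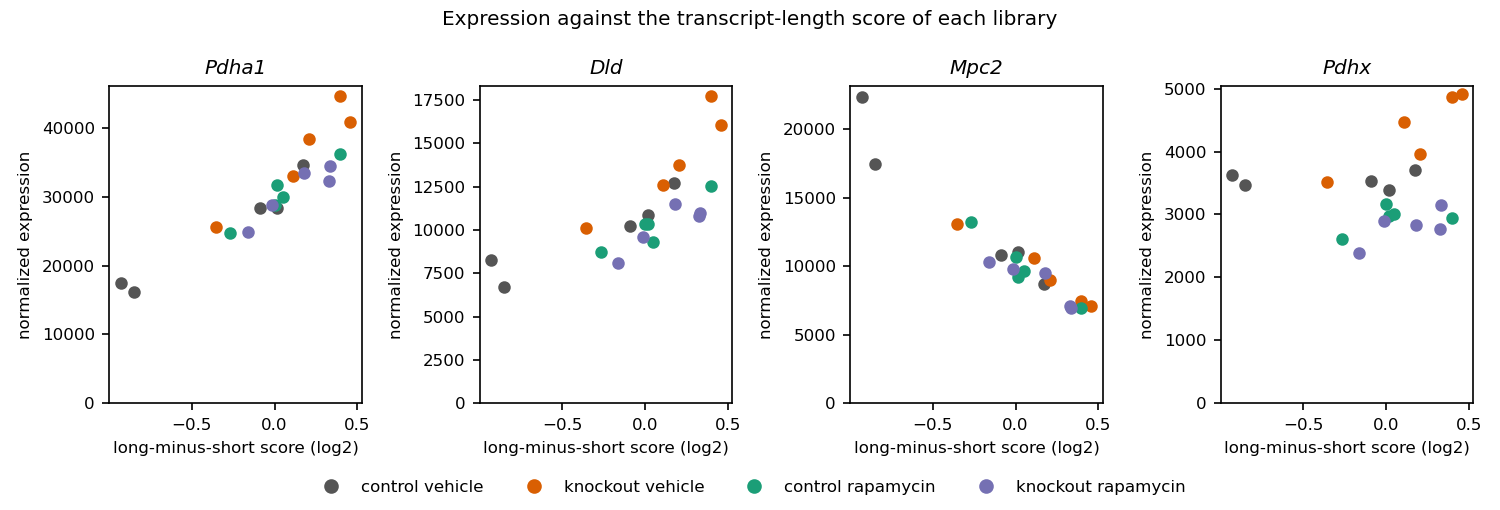
Each point is 1 library, coloured by group, with the long-minus-short transcript score (x axis, log2) against normalized expression (y axis, linear from 0) of Pdha1, Dld, Mpc2 and Pdhx. The points at -0.93 and -0.85 are control vehicle libraries 3 and 1, at the low end of Pdha1 (17435 and 16103) and the high end of Mpc2 (22367 and 17482). Pdhx separates by drug. Its r with the score was 0.17 over all libraries and 0.43 without that pair, and the relation within a drug arm was not tested.

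Among the kinases, Pdk4 varied most and Pdk2 least. Pdk4 read 11924, 28469, 37204, 45987 and 138099 in control vehicle and 37133, 44502, 28835, 84175 and 54325 in knockout vehicle hearts. Under rapamycin it read 45729, 45933, 23077, 42734 and 59071 in control and 22061, 20043, 58859, 94084 and 126748 in knockout hearts. All groups overlapped, and the highest library exceeded the lowest by 11.6-fold. The fitted differences of Pdk4 were 0.29 and 0.27 for genotype under vehicle and rapamycin, and 0.12 and 0.10 for rapamycin in control and knockout hearts, each with SE 0.55. The 95% interval under vehicle, -0.85 to 1.43, held differences of more than 1 log2 unit upward. The SD of Pdk4 within groups, 0.96 on the log2 scale, exceeded that of 96.4% of the genes tested, whose median was 0.31.

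The high Pdk4 values lay in 1 sequencing pool. All 5 libraries of pool 4, which come from all 4 groups, read 59071 to 138099, and the 15 libraries of the other pools 11924 to 58859. Only 4 genes, 0.0295% of those tested, were higher in every library of pool 4 than in all others: Angptl4, Gpr20, Pdk4 and Zfp316. The comparison of pools was made after Pdk4's values were seen. With group in the model, Pdk4 was higher in pool 4 by 1.52 (SE 0.32, limma adjusted p = 0.746). Between pools limma called 0% of genes (5.49% had an unadjusted p below 0.05). The labels give the pool as a pool of libraries and say nothing of when animals were killed or fed, so what else the animals of pool 4 share was not tested. Lane codes in the library names were the same within a pool and differed between pools. Pool and sequencing lane therefore cannot be told apart. With pool in the model the genotype difference of Pdk4 under vehicle was 0.21 with SE 0.39, against SE 0.55 without it.

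Other transcripts known to respond to PPAR receptors and fasting were described beside Pdk4. Angptl4, a secreted inhibitor of lipoprotein lipase, was higher in pool 4 by 1.72 (SE 0.47), from 141 to 1338 in the other pools to 1380 to 3431. Ucp3, a mitochondrial carrier, differed by 1.16 (SE 0.33) and the thioesterase Acot1 by 0.72 (SE 0.17). Of 11 PPAR-responsive genes 8 lay above 0, with a median of 0.22 against 0.041 over all genes. Markers of other cells differed with the pool too: 6 of 6 endothelial (median 0.27), 6 of 6 erythroid (0.17), 6 of 7 fibroblast (0.17) and 0 of 5 adipocyte markers (-0.34) lay above 0, with none called, and their part in the Pdk4 values was not tested. Of 7 glucocorticoid-responsive genes 3 lay above 0, with a median of -0.16, and Fkbp5 differed by -0.16 (SE 0.58). None of these genes was called. The 5 genes most like Pdk4 over the 20 libraries were Plekhm2 (r = 0.82), Ctnnbl1 (0.81), Ucp3 (0.80), Hdgfl2 (0.79) and Wdr91 (0.78).

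**Figure D4:**
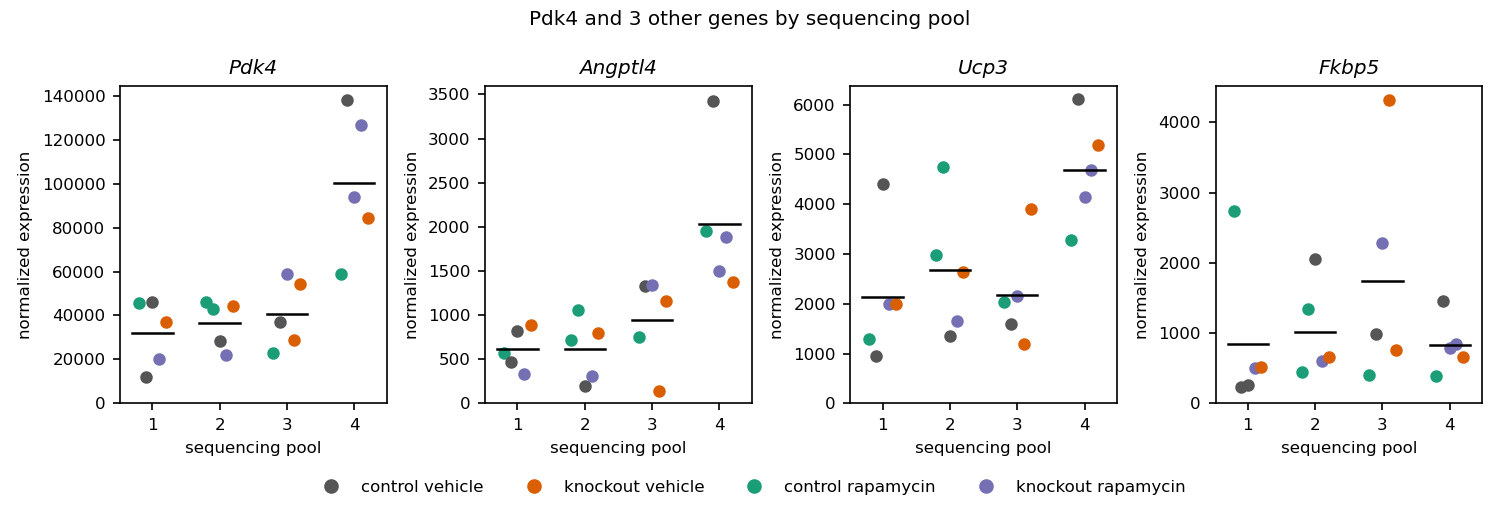
Normalized expression (y axis, linear from 0) of Pdk4, Angptl4, Ucp3 and Fkbp5 is plotted by sequencing pool (x axis), 1 point per library coloured by group, with a line at the pool mean. Every pool 4 point of Pdk4 (59071 or more) and Angptl4 (1380 or more) lies above all points of pools 1 to 3, while Fkbp5 in pool 4 (383 to 1463) lies within the range of the others.

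Pdk2, the other abundant kinase, stayed between 12820 and 16351 in all 20 libraries, and its SD within groups exceeded that of only 0.413% of the genes tested. Its values were 15203, 16351, 15745, 15554 and 15958 in control vehicle and 13972, 12820, 14284, 15529 and 15010 in knockout vehicle hearts. Only knockout library 4 reached into the control range. The fitted difference was -0.14 (SE 0.079, limma adjusted p = 0.213), and the other 3 comparisons lay between -0.14 and 0.054. Pdk1, the kinase known for its response to hypoxia, read 4324, 5361, 3877, 5750 and 5498 in control and 6036, 6202, 7149, 5566 and 5263 in knockout vehicle hearts. The difference was 0.29 (SE 0.11, limma adjusted p = 0.109). It became 0.12 (adjusted p = 0.839) without control vehicle libraries 1 and 3, which held the 2 lowest values. It passed the threshold without control vehicle library 5 or knockout vehicle library 5. Without control vehicle library 5, 3090 of 13548 genes were called, so passing there is not particular to Pdk1. The count without knockout vehicle library 5 is not given here.

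Pdk3, the kinase with the lowest level, was the one kinase whose genotype groups did not overlap. Under rapamycin it read 115.9, 103.8, 88.7, 95.9 and 85.4 in control and 118.5, 182.2, 144.3, 154.6 and 122.7 in knockout hearts, with all 5 knockout values above all 5 control values. Of all genes, 0.332% were higher without overlap in this comparison. The fitted difference was 0.55 (SE 0.17, unadjusted p = 0.0036, limma adjusted p = 0.9996), and 0.0221% of genes were called. Under vehicle the values were 82.6, 88.3, 102.1, 67.1 and 95.8 in control and 116.8, 86.5, 109.3, 158.4 and 117.6 in knockout hearts. They overlapped through knockout library 2, and the difference was 0.42 (SE 0.17, adjusted p = 0.115). Averaged over drug it was 0.48 (SE 0.12, limma adjusted p = 0.0735, 0.443% of genes called). It passed the threshold, at 0.56 (limma adjusted p = 0.0317), under robust variances with array weights, in 1 of 10 alternative settings. That setting called 131 genes over the whole table, against 60 in the main fit, so passing there is not particular to Pdk3. Without control vehicle libraries 1 and 3 it was 0.51 (adjusted p = 0.151), and within pools it was 0.65, 0.11, 0.42 and 0.70. The steps of the values imply 37 to 127 reads for Pdk3 per library, so counting error adds to its spread.

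Weighted per kilobase, Pdk4 made up most of the kinase transcripts, with a mean share of 56.6% ± 18.9, 63.4% ± 8.79, 61.4% ± 9.15 and 63.2% ± 18.3 (SD, n = 5) in the order control vehicle, knockout vehicle, control rapamycin, knockout rapamycin. The share ran from 30.9% in control vehicle library 1 to 82.8% in control vehicle library 5. Pdk2 held a mean of 38.1%, 30.6%, 33.1% and 31.2% in the same order, Pdk1 5.05% to 5.75% and Pdk3 0.222% to 0.333%. In pool 4 the Pdk4 share averaged 77.3%, against 55.8% elsewhere. None of the 16 comparisons of a kinase share between groups passed an exact permutation test (two-sided, adjusted p = 1 for each). With 5 libraries against 5 the smallest p is 0.00794, which adjusts to 0.127 for a single share, so no single share could have passed. The log2 ratio of summed kinases to the phosphatases Pdp1 plus Pdp2, per kilobase, ranged from 4.44 to 6.74, and none of its 4 group comparisons passed (adjusted p = 1, exact permutation).

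**Figure D5:**
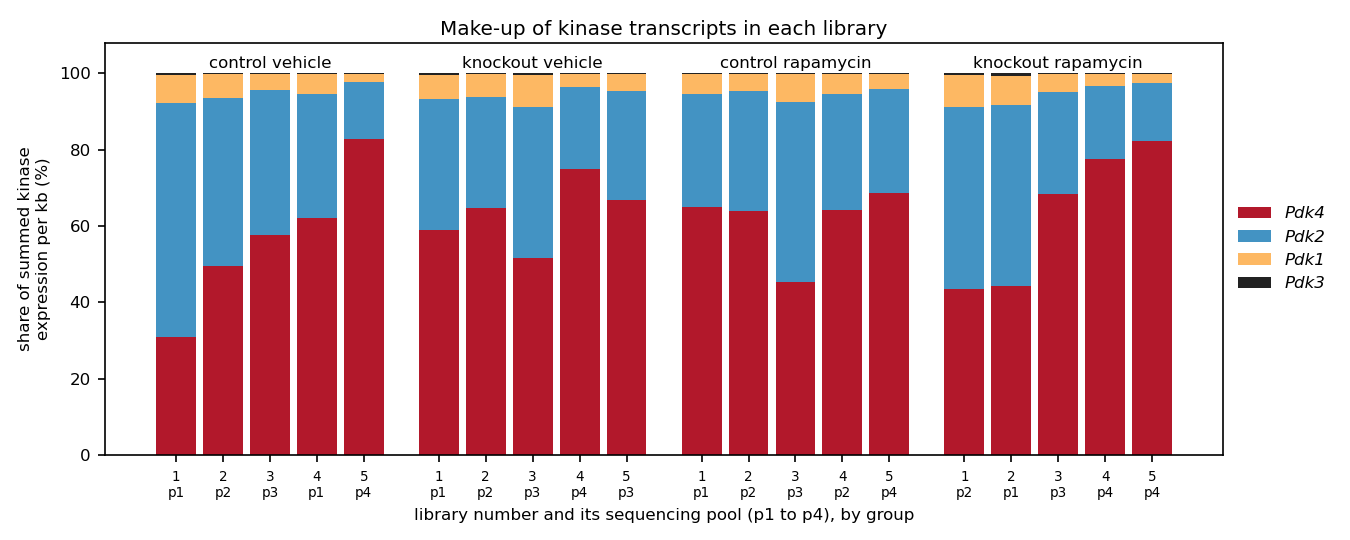
Each bar is 1 library (x axis, with its number and pool, p1 to p4, by group) and stacks the share of Pdk4, Pdk2, Pdk1 and Pdk3 in the summed per-kilobase expression of the 4 kinases (y axis, percent, from 0). The Pdk4 share runs from 30.9% to 82.8%, and Pdk4 segments of pool 4 are among the longest.

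The genes that reverse the kinases or feed the complex were read from a list of 5. Pdp1, the phosphatase with the higher level, differed by -0.29 (SE 0.14, limma adjusted p = 0.159) between genotypes under vehicle, Pdp2 by 0.094 (adjusted p = 0.755), and Pdpr, the regulatory subunit, by 0.16 (adjusted p = 0.587). The pyruvate carrier subunits Mpc1 and Mpc2 differed by -0.64 (adjusted p = 0.135) and -0.53 (adjusted p = 0.137). Without control vehicle libraries 1 and 3 these were -0.21 and -0.14. Both genes ran opposite to Pdha1 along the length score, with r = -0.91 and rho = -0.86 for Mpc1 and r = -0.97 and rho = -0.92 for Mpc2 (permutation p = 1e-05 each, adjusted p = 4.7e-05 for r and 3.5e-05 for rho), and r = -0.81 and -0.94 without that pair. The limits given above for the score and its permutations apply here too. None of the 5 genes was called in any comparison.

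Wider lists around the complex showed few calls. Bckdhb, the E1 beta subunit of the branched-chain sister complex, fell by 0.39 under rapamycin averaged over genotypes (SE 0.078, limma adjusted p = 0.04995). Its means were 2600, 2037, 1819 and 1668 in the order control vehicle, knockout vehicle, control rapamycin, knockout rapamycin, and without control vehicle libraries 1 and 3 the difference was -0.32 (adjusted p = 0.113). With a pool term its adjusted p was 0.136. The call held in 5 of 10 alternative settings and in 2 of 20 fits that left out 1 library, without control vehicle library 4 or without control vehicle library 5. The remaining 7 genes of the sister complexes that share Dld or lipoyl groups were not called. Of 11 genes of lipoate synthesis and attachment, all lay below 0 under rapamycin averaged over genotypes, with a median of -0.16 against 0.037 over all genes, and none was called (the lowest, Mecr, -0.28, limma adjusted p = 0.199). Their median stayed below 0, between -0.19 and -0.065, under the 10 alternative settings. The arms were unlike: in control hearts 0 of 11 lay above 0 (median -0.28), in knockout hearts 2 of 11 (median -0.060 against -0.016 over all genes). Only the control arm holds control vehicle libraries 1 and 3, and its median is not given without them. Between genotypes under vehicle, a comparison that holds them too, the median of these genes was -0.25. None of the 8 genes for other fates of pyruvate, the 4 of thiamine supply, the 12 regulators of Pdk4 or the 7 glucocorticoid-responsive genes was called in any comparison.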

How the data were processed

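RNA from 20 ventricle libraries, 5 per group by the title labels, was analysed. Per the submitters' processing notes, the deposited signal per gene came from RSEM on build mm9 with Picard 1.64 and SAMtools, and the values were scaled by the authors to a common upper quartile (996.6 to 1000 here). No source used here gives the aligner or the versions of RSEM and SAMtools. Between 86.6% and 88.5% of low values were whole multiples of 1 step within 0.05 reads, too few to treat reads as recovered, so no count test was run. Implied depth was 11.5 to 21.1 M reads per library. Intervals and errors therefore reflect the spread between libraries.

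Values were analysed as log2(value + 1) for 13548 genes with at least 10 in at least 5 libraries. A linear model with 1 mean per group was fitted to all 20 libraries with limma 3.58.1 (R 4.3.3) with a trend, and p-values were adjusted over all genes by the Benjamini-Hochberg method (threshold 0.05). Fold changes understate the change of low genes. Shares and ratios were compared by exact permutation. The fit was tested on simulated data. Per-kilobase values and the length score used the longest protein-coding transcript of GENCODE vM21, found for 96.9% of the genes tested, and Mpc1 and Mpc2 are Brp44l and Brp44 in the file. The members and lists were chosen with earlier results of these data known. Named genes are the 9 members, Acsl1, the 5 phosphatase and carrier genes, list genes past the threshold, the 2 with the smallest p per list and averaged comparison, and the 5 most alike to Pdhx and Pdk4. Alternatives covered the pseudocount, filter, scaling, pool, replicate block, groups fitted, weights and left-out libraries. A result of the gene lists is not reported here.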

Additional observations from a re-analysis of the deposited data

Results flagged for a closer look

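Of 96 groups of 5 libraries checked over 24 quantities, 5 held a library far from the other 4, and chance alone gives about 1 in 20. Dlat in control vehicle library 3 read 18306, the highest, against 14107 to 14779 in the others. Pdk4 in control vehicle library 5 read 138099 against 11924 to 45987. Acsl1 in control rapamycin library 4 read 16661 against 10518 to 12198. In control rapamycin library 3 the Pdk2 share of kinase transcripts was 47.1% against 27.2% to 31.5%, and the Pdk4 share was 45.4% against 63.9% to 68.6%. That library's Pdk4 value, 23077, was the lowest of its group, and both shares are parts of the same sum.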

How the results depend on the processing

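The fits changed 1 choice at a time, except that robust variance and array weights were changed together. With control vehicle libraries 1 and 3 left out, the counts of genes called were 4 for genotype under vehicle, 0 for rapamycin in knockout, 11 for genotype averaged and 4 for rapamycin averaged. With a pool term they were 56 for genotype under vehicle, 0 for rapamycin in knockout and 0 for rapamycin averaged. With robust variance and array weights they were 12 for genotype under vehicle, 14 for genotype under rapamycin, 58 for rapamycin in knockout, 131 for genotype averaged and 35 for rapamycin averaged. Fitting only the groups compared gave 3 for genotype under vehicle and 0 for rapamycin in knockout. Quantile normalization and median-ratio rescaling gave 0 for rapamycin in knockout, and no filter gave 37 for genotype averaged. Leaving out 1 library at a time gave 8 to 3090 for genotype under vehicle (lowest without control vehicle library 1, highest without control vehicle library 5), 21 to 150 for genotype averaged, 3 to 17 for rapamycin averaged and 0 to 2 for rapamycin in knockout.

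Replicate numbers did not pair the samples: deviations of same-numbered libraries correlated at -0.51 to 0.21 for genotype under vehicle (2 of 5 pairs above 0.1), -0.17 to 0.27 for genotype under rapamycin (1 of 5), -0.28 to 0.17 for rapamycin in control (1 of 5) and -0.22 to 0.27 for rapamycin in knockout (3 of 5). In the same order 1, 1, 0 and 2 of 5 pairs correlated best with their own number. A replicate block gave 0 genes called for rapamycin in knockout and 5 for rapamycin averaged.

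Pdhx is not considered here, since its values chose the set. No other member was called in the 4 simple comparisons under any alternative other than the left-out libraries named in the report. The differences that turned sign, none of them called, were as follows, and the cause was not tested. Without control vehicle libraries 1 and 3, genotype under vehicle gave Dlat 0.070, Pdk4 -0.28 and Pdp2 -0.15, and rapamycin in control gave Pdha1 -0.0098, Pdhb 0.021, Dld -0.14, Pdk1 -0.098 and Pdk4 -0.45. The same setting gave, for genotype under vehicle, Pdk2 share 0.109, Pdk4 share -1.39 and the kinase to phosphatase ratio -0.12, and for rapamycin in control Pdk2 share 2.66, Pdk4 share -3.37, Pdhb over Pdha1 0.031 and Dld over Dlat -0.025. Array weights gave Dlat 0.049 for genotype under vehicle, Dld 0.039 for genotype under rapamycin, Dld -0.051, Pdk1 -0.028 and Pdk4 -0.33 for rapamycin in control, and Pdk4 -0.22 for rapamycin in knockout. The pool term gave Pdhb -0.0011 for genotype under vehicle, Dld 0.018 and Pdk4 -0.021 for genotype under rapamycin, and Pdk4 -0.17 for rapamycin in knockout. Quantile normalization gave Dlat 0.13 and Pdk2 0.012 for genotype under vehicle. Median-ratio rescaling gave Pdhb -0.029 for genotype under vehicle and Dld 0.0040 for genotype under rapamycin. Without division by length, the Pdk1 share was -0.0516 and the kinase to phosphatase ratio 0.018 for rapamycin in control.

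With 1 library left out at a time, genotype under vehicle ranged over Pdhb -0.024 to 0.0998, Dlat -0.036 to 0.058, Pdk4 -0.13 to 0.75, Pdp2 -0.11 to 0.22 and Pdk1 share -0.0115 to 1.32. Genotype under rapamycin ranged over Pdha1 -0.047 to 0.097, Dlat -0.063 to 0.0029, Dld -0.063 to 0.073, Pdk4 -0.067 to 0.60, Pdk1 share -0.756 to 0.726, Pdk2 share -6.05 to 2.09, Pdk4 share -2.96 to 6.72, Dld over Dlat -0.017 to 0.093 and Pdhx over Dlat -0.088 to 0.0041. Rapamycin in control ranged over Dld -0.032 to 0.20, Pdk1 -0.0086 to 0.13, Pdk4 -0.30 to 0.59, Pdk1 share -0.561 to 0.769, Pdk2 share -10.8 to 0.802, Pdk3 share -0.0145 to 0.0501, Pdk4 share -1.62 to 11.4 and the kinase to phosphatase ratio -0.23 to 0.32. Rapamycin in knockout ranged over Pdk4 -0.23 to 0.43, Pdk1 share -1.31 to 0.186, Pdk2 share -3.50 to 4.64, Pdk3 share -0.0102 to 0.123, Pdk4 share -4.94 to 4.74, Pdhb over Pdha1 -0.13 to 0.092, Dlat over Pdha1 -0.056 to 0.12 and the kinase to phosphatase ratio -0.19 to 0.32.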
